A study of Mus musculus with 14 samples.

Results

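The genes described here are the 9 genes of the selenocysteine (Sec) machinery: Secisbp2l, Secisbp2, Eefsec, Sepsecs, Pstk, Sephs1, Sephs2, Trnau1ap and Scly. They were chosen by gene symbol, and they are 9 of the 23427 genes measured by mRNA-seq in mouse primary oligodendrocyte precursor cells (OPCs) and the oligodendrocytes (OLs) that arise from them in culture. The study asked what loss of Sbp2l, the RNA-binding protein encoded by Secisbp2l, does to differentiating OLs. All cells were wild-type C57BL/6J, taken with an antibody against Pdgfra from the cortices of pooled P7 pups, and they were differentiated by withdrawal of PDGF-AA and addition of the thyroid hormone T3. The 14 libraries formed 7 groups of 2.

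Day0 was the OPC group. The other 6 groups were taken at Day3 of differentiation. Non-treated cells received nothing, mock cells received the transfection step without an siRNA, and NC siRNA #1 and NC siRNA #2 cells received siRNAs that target no gene. siSbp2l cells received an siRNA against Secisbp2l and siPdgfra cells an siRNA against Pdgfra, the PDGF receptor of OPCs. An siRNA lowers the mRNA that it matches, so these groups are knockdowns (KD) and not deletions. The growth medium in the study's methods contained sodium selenite, a source of selenium, for every group, whereas the labels describe a medium with serum. Per the study's methods, the KD series, from which all 14 libraries come, was sequenced on a HiSeq. The methods describe 2 independent replicates of cultured OPCs and do not say whether these came from separate cell preparations. The p-values measure the spread between the 2 libraries within a group, and not the spread between siRNAs.

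Selenocysteine is the amino acid of selenoproteins such as glutathione peroxidases and thioredoxin reductases. It is encoded by UGA, which elsewhere ends translation, and it is read as Sec only where the mRNA also carries a hairpin called the SECIS element. Sec is built on its own tRNA: the tRNA is loaded with serine, Pstk phosphorylates the serine, and Sepsecs exchanges the phosphate for selenium donated by selenophosphate, the product of Sephs2. Secisbp2 (Sbp2) binds the SECIS element, and Eefsec, the elongation factor for Sec, brings the loaded tRNA to the ribosome. Trnau1ap binds the Sec tRNA, Scly releases selenium from free Sec for reuse, Sephs1 is a paralog of Sephs2 without selenophosphate synthesis of its own, and Secisbp2l is the vertebrate paralog of Secisbp2.

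In these libraries the 9 genes split sharply in behaviour. Secisbp2l rose 6.15-fold in mean FPKM from Day0 to Day3 non-treated cells, to levels at which 98.1 to 99.4% of all listed genes were lower in the Day3 control libraries. Secisbp2 stayed between 12.04 and 14.4 FPKM in every Day0 and control library. Most of the rest fell as OPCs differentiated, and Scly and Sepsecs rose. FPKM is the number of fragments of a gene scaled by the length of its exons and by the mapped fragments of the library, so levels of different genes can be set side by side. In siSbp2l cells Secisbp2l stood at 2.10% of the mean of the 4 control groups, while Secisbp2 was 1.51-fold and Eefsec 1.71-fold that mean. In siPdgfra cells Secisbp2l was 0.78-fold, Secisbp2 1.19-fold and Eefsec 1.51-fold the same mean.

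The depth recovered from the FPKM steps was about 6556024 fragments in NC siRNA #2 replicate 2, and between 18480005 and 31566277 fragments in every other library. The 2 non-treated libraries differed more than other pairs, with an SD of the log2 difference over 11874 genes of 0.457, against 0.148 to 0.1995 in the other 6 groups. The OL lineage markers Olig1, Olig2 and Sox10 were at 128.9 FPKM or higher in every library. Of 5 microglial, 4 endothelial and 4 fibroblast and mural markers, only P2ry12 (up to 9.46 FPKM) and Kdr (up to 1.80 FPKM) reached 1 FPKM in any library, and Cldn5 and Cdh5 were listed at 0 in all. Astrocyte and neuronal markers were mixed. Gfap ran from 0.677 to 79.2 FPKM, Slc1a2 from 6.50 to 23.7 FPKM and Tubb3 from 22.8 to 273 FPKM. Aldh1l1 reached 7.13 FPKM and Syt1 5.16 FPKM. Rbfox3 and Snap25 each reached 1 FPKM in 2 libraries, and Aqp4, Gja1 and Slc17a7 in none. Pdgfra stood at 2.69 and 3.30 FPKM in the siPdgfra libraries and at 32.4 to 72.1 FPKM in the control libraries.

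The 2 paralogs were read from distinct sequence. Their longest identical stretch, within the coding sequence of both, was 18 bases when their GENCODE vM21 transcripts, of 6797 bases for Secisbp2l and 3328 bases for Secisbp2, were compared. Secisbp2l lies on chr2:125736986-125782870 (mm10, minus strand) and Secisbp2 on chr13:51651714-51683646 (mm10, plus strand). The stretches that the study's own qPCR assays read are shown to identify the 2 messages by sequence. The Secisbp2l stretch joins exons 11 and 12 of 18, within the coding sequence, at chr2:125752927-125757237, and the Secisbp2 stretch runs from exon 8 to exon 10 of 17 at chr13:51670916-51673888. Capitals mark the binding sites of the forward primer, probe and reverse primer, in that order.
Secisbp2l: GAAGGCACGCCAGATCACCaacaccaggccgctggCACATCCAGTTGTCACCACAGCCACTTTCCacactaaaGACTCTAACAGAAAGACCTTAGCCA
Secisbp2: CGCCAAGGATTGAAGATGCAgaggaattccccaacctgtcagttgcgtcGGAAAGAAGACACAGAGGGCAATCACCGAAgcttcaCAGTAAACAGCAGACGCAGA
None of the 6 primers and probes matched the transcript of the other paralog.

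**Figure D1:**
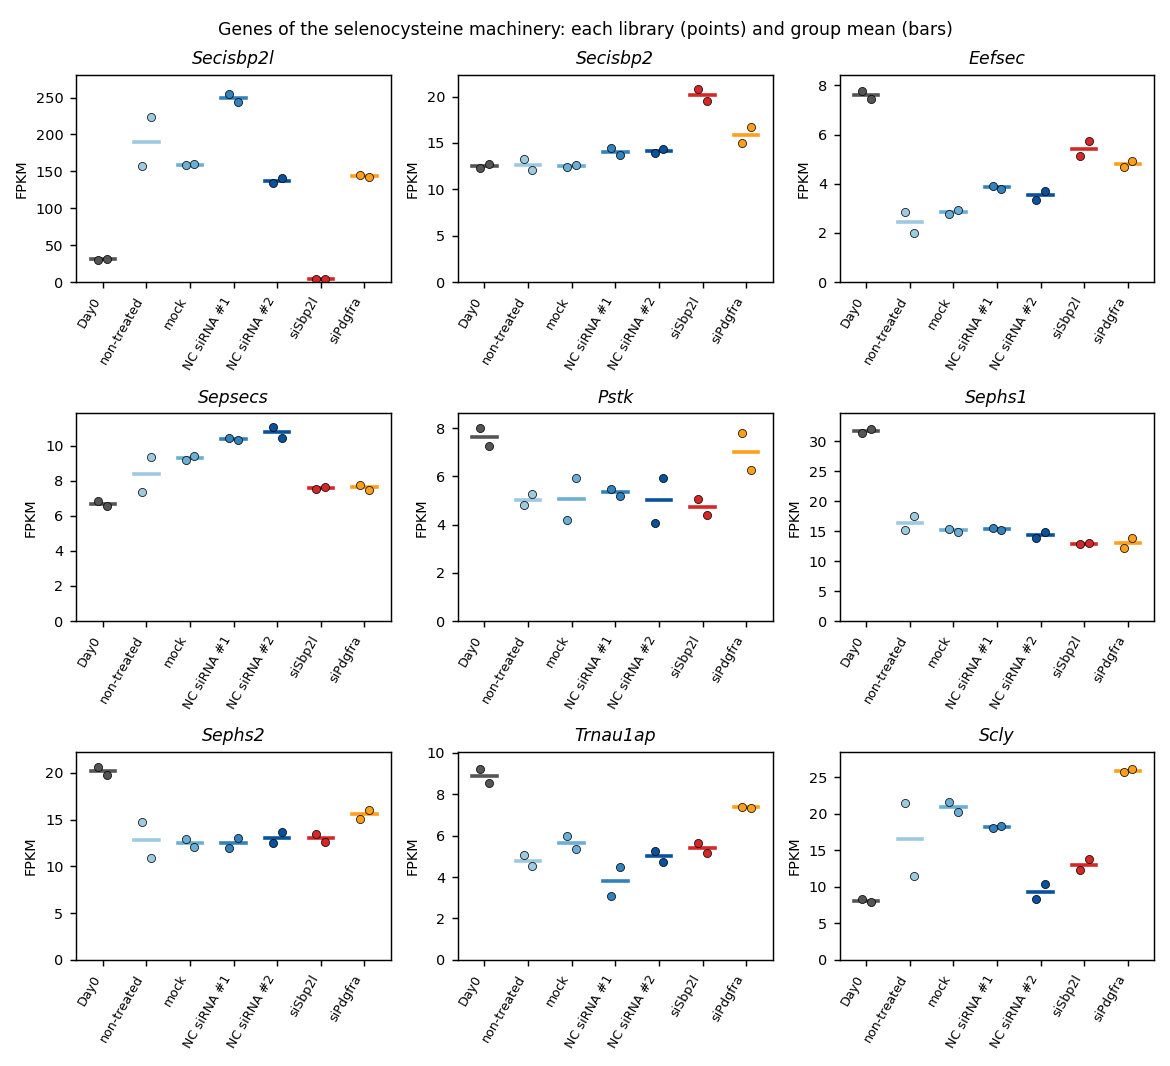
FPKM (vertical axes, each from 0) of the 9 genes in each of the 7 groups. Points are the 2 libraries of a group and bars their mean. Secisbp2l spans 3.82 to 255 FPKM over the groups, while Secisbp2 lies between 12.04 and 20.9 FPKM and is highest in siSbp2l.

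Differentiation was the first comparison, of Day3 non-treated cells with Day0 OPCs. Secisbp2l stood at 30.4 and 31.5 FPKM at Day0 and at 157.0 and 223 FPKM in non-treated cells. All 8 control libraries at Day3, from 135 to 255 FPKM, were above both Day0 libraries. The fitted rise was 2.56 ± 0.13 (SE) on the log2(FPKM + 1) scale, with an adjusted p of 1.96e-08 by limma. The adjustment is that of Benjamini and Hochberg over all genes tested. This scale is used for every fitted difference, and it understates the change of low genes. Secisbp2 did not follow its paralog. It stood at 12.3 and 12.7 FPKM at Day0 and at 13.2 and 12.04 FPKM in non-treated cells, and the groups overlap. Its fitted difference was 0.01, with a 95% interval from -0.19 to 0.21 and an adjusted p of 0.907.

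With 0.05 as the threshold on the adjusted p, 3 of the 9 genes rose and 5 fell. Among the 11874 genes tested in this comparison, 28.4% rose and 38.6% fell, so the count of the 9 genes is to be read against a background in which most genes moved. With the study's further limit of a 2-fold change, 2 of the 9 genes passed, against 26.6% of all genes. The median difference of the 9 genes was -0.52, beside -0.12 for all genes tested.

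Eefsec, on chr6:88257334-88446539 (mm10, minus strand), was the other gene beyond 2-fold. It stood at 7.75 and 7.47 FPKM at Day0 and at 2.86 and 2.01 FPKM in non-treated cells, with no overlap. The fitted fall was -1.34 ± 0.12 (adjusted p = 1.7e-06), and mock cells, at 2.78 and 2.94 FPKM, were as low as non-treated cells.

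Both Sephs genes fell. Sephs1 (chr2:4881564-4910556, mm10, plus strand) stood at 31.4 and 32.0 FPKM at Day0 and at 15.2 and 17.5 FPKM in non-treated cells, a fitted difference of -0.91 ± 0.09 (adjusted p = 5.59e-06). Sephs2 (chr7:127271879-127274059, mm10, minus strand) stood at 20.7 and 19.8 FPKM at Day0 and at 14.8 and 10.9 FPKM in non-treated cells, a fitted difference of -0.63 ± 0.12 (adjusted p = 0.000908). Neither gene's Day0 libraries overlapped any of the 12 Day3 libraries. The Sephs1 to Sephs2 ratio was 1.52 and 1.62 at Day0 and between 1.03 and 1.61 in the Day3 control libraries, with both ends of that range in the 2 non-treated libraries.

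The genes that act on the Sec tRNA moved in both directions. Trnau1ap (chr4:132311763-132329538, mm10, minus strand) stood at 9.23 and 8.54 FPKM at Day0 and at 5.07 and 4.52 FPKM in non-treated cells, a fitted difference of -0.77 ± 0.13 (adjusted p = 0.00037). Pstk (chr7:131371146-131387838, mm10, plus strand) stood at 8.01 and 7.28 FPKM at Day0 and at 4.81 and 5.27 FPKM in non-treated cells, a fitted difference of -0.52 ± 0.17 (adjusted p = 0.021). The call of Pstk was lost without Day0 replicate 1 (adjusted p = 0.104) or non-treated replicate 1 (adjusted p = 0.0579). Sepsecs (chr5:52643407-52669701, mm10, minus strand), which acts on the product of Pstk, went the other way, from 6.85 and 6.53 FPKM at Day0 to 7.38 and 9.34 FPKM. Its fitted rise was 0.28 ± 0.10 (adjusted p = 0.035). It was 0.43 without non-treated replicate 1, and it no longer passed without non-treated replicate 2 (0.12, adjusted p = 0.191), Day0 replicate 1 (adjusted p = 0.077) or Day0 replicate 2 (adjusted p = 0.144). Against mock cells, at 9.17 and 9.39 FPKM, the rise of Sepsecs over Day0 was 0.42 (adjusted p = 0.00397).

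Scly (chr1:91298338-91321080, mm10, plus strand), the gene for recycling, stood at 8.31 and 7.89 FPKM at Day0. The non-treated libraries held 21.5 and 11.5 FPKM, the widest log2 gap between the non-treated replicates among the 9 genes, and both were above Day0. The fitted rise was 0.89 ± 0.21 (adjusted p = 0.00308), and it was 0.46 without non-treated replicate 1 (adjusted p = 0.0031). With mock cells (21.6 and 20.3 FPKM) in place of non-treated cells it was 1.27 (adjusted p = 0.000259).

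Over the same step the OL markers Mbp, Cnp, Mag, Mog and Tppp summed to 206 to 229 FPKM at Day0 and to 2133 to 3918 FPKM in the control libraries, and the OPC markers Pdgfra, Cspg4 and Ptprz1 to 666 to 708 and 88.0 to 192 FPKM. A list of astrocyte markers summed to 10.2 to 10.7 FPKM at Day0 and to 54.5 to 103 FPKM in the control libraries. A list of neuronal markers, carried by Tubb3, summed to 27.4 to 29.3 and 47.8 to 276 FPKM. In the astrocyte list Gfap reached 79.2 FPKM and the next highest gene, Slc1a2, 23.7 FPKM. In bulk RNA, more cells that use a gene and more RNA per cell cannot be told apart. The part of these marker shifts in the changes of the 9 genes was not tested.

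**Figure D2:**
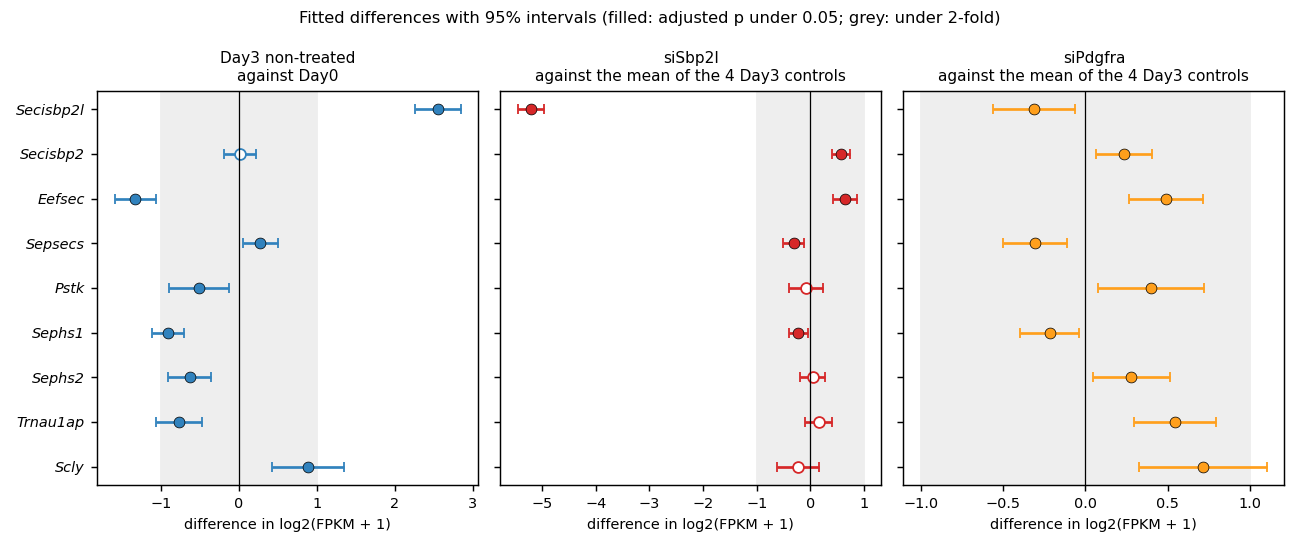
Fitted differences in log2(FPKM + 1) with 95% intervals for the 9 genes (rows) in 3 comparisons (panels, each with its own horizontal scale). Filled points passed an adjusted p of 0.05, open points did not, and grey marks changes under 2-fold. Secisbp2l lies far outside the grey band at Day3 against Day0 and in siSbp2l, and no gene lies outside it in siPdgfra.

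The ratio of the 2 SECIS-binding paralogs moved with Secisbp2l. Secisbp2l held 2.47 and 2.48 times the FPKM of Secisbp2 at Day0. In the 8 control libraries at Day3 the ratio lay between 9.70 and 18.6. Secisbp2l alone made up 22.6 and 23.5% of the summed FPKM of the 9 genes at Day0 and 64.3 to 75.5% in the control libraries, while the other 8 genes together fell from 102 to 104 FPKM to between 72.3 and 84.9 FPKM.

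**Figure D3:**
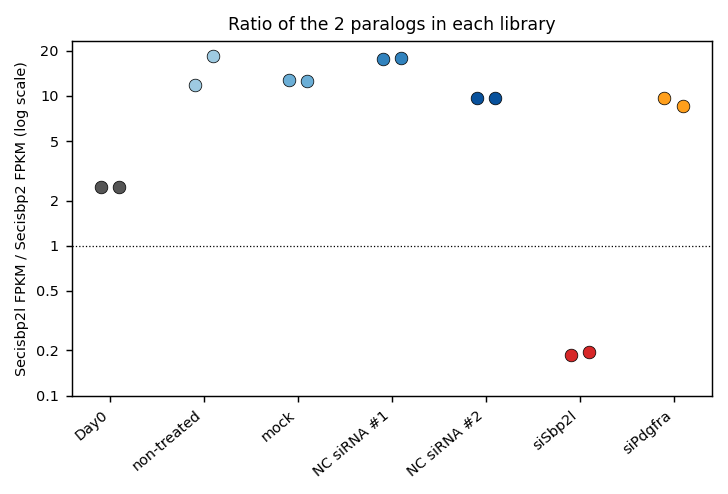
Ratio of Secisbp2l FPKM to Secisbp2 FPKM (vertical axis, log scale) in each library, by group. The dotted line is a ratio of 1. Day0 libraries sit near 2.5, Day3 controls and siPdgfra between 8.51 and 18.6, and only the siSbp2l libraries, at 0.188 and 0.196, lie below 1.

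The control groups differed in Secisbp2l. In descending order of the mean, NC siRNA #1 (255 and 244 FPKM) was apart from every other group, non-treated (157.0 and 223 FPKM) overlapped mock (159 and 159 FPKM), and NC siRNA #2 (135 and 140.4 FPKM) was lowest. NC siRNA #1 exceeded NC siRNA #2 by 0.86 ± 0.14 (adjusted p = 0.00188), although neither siRNA targets the gene. Scly differed in the same direction, at 18.1 and 18.3 FPKM against 8.29 and 10.4 FPKM (0.90 ± 0.22, adjusted p = 0.0159), a call that was lost without either NC siRNA #1 library (adjusted p = 0.0852 and 0.0846) or without NC siRNA #2 replicate 1 (0.119). These were the only 2 of the 9 genes past the threshold between the non-targeting siRNAs, both higher in NC siRNA #1. Among all 11650 genes tested in the Day3 libraries, 10.1% were higher, 10.8% were lower and 3.99% were also past 2-fold, which neither gene reached. The medians were 0.09 for the 9 genes and -0.06 for all genes. For the 7 others the differences lay between -0.33 and 0.10, the lowest being that of Trnau1ap, which passed without NC siRNA #1 replicate 2 (-0.55, adjusted p = 0.0352). Mbp, a main myelin protein gene, differed between the same groups by 1.18 ± 0.19 (adjusted p = 0.00185), and the summed OL markers stood at 3584 to 3683 FPKM in NC siRNA #1 and at 2133 FPKM in both libraries of NC siRNA #2. Other marker lists differed between these groups as well. The neuronal list summed to 269 to 276 FPKM in NC siRNA #1 and to 119 to 127 FPKM in NC siRNA #2. The astrocyte list summed to 54.5 to 56.5 FPKM in NC siRNA #1 and to 98.4 to 103 FPKM in NC siRNA #2. The part of all these markers in the differences of Secisbp2l and Scly was not tested.

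The targeted gene was low in both siSbp2l libraries. Secisbp2l stood at 3.91 and 3.82 FPKM in siSbp2l, from 538 and 563 fragments, whose exact Poisson 95% intervals are 3.59 to 4.26 and 3.52 to 4.15 FPKM. These intervals cover counting error only. The siSbp2l libraries were 8.0-fold below even the Day0 mean, and the fitted difference from the mean of the 4 control groups was -5.21 ± 0.11 (adjusted p = 6.12e-09). Against the single control groups it lay between -4.83 (NC siRNA #2) and -5.69 (NC siRNA #1).

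Secisbp2 was higher in siSbp2l than in any other group. The siSbp2l libraries held 20.9 and 19.5 FPKM, a mean of 20.2 ± 0.98 (SD, n = 2), and the highest control library 14.4 FPKM. The fitted rise over the 4 controls was 0.56 ± 0.08 (adjusted p = 0.000182), short of 2-fold. It passed for each single control group, the rise being 0.64 over non-treated, 0.65 over mock, 0.49 over NC siRNA #1 and 0.48 over NC siRNA #2. Those comparisons share the siSbp2l libraries. The call held under every alternative tried, with values from 0.41 to 0.61. In FPKM, the gain in Secisbp2 was small beside the loss of Secisbp2l. The summed FPKM of both paralogs fell from between 149 and 270 in the control libraries to 24.8 and 23.3 in siSbp2l. This sum counts mRNA only. The paper describes Sbp2l as lacking the ability of Sbp2 to insert Sec. It also cites a study in which Sbp2l acts in OL differentiation through synthesis of the selenoprotein Dio2. The sum is therefore not read as a measure of a shared function.

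Eefsec rose as well. It stood at 5.14 and 5.73 FPKM in siSbp2l and at 2.01 to 3.92 FPKM in the control libraries, with no overlap. Its fitted rise was 0.64 ± 0.10 (adjusted p = 0.000468), and it passed against each single control, from 0.40 (NC siRNA #1, adjusted p = 0.0251) to 0.91 (non-treated, adjusted p = 0.00025). The call against NC siRNA #1 was lost without any one of the 4 libraries compared (adjusted p from 0.0569 to 0.143), and that against NC siRNA #2 without NC siRNA #2 replicate 1 (0.0673) or siSbp2l replicate 2 (0.0743). Both siSbp2l libraries stayed below the Day0 libraries at 7.47 and 7.75 FPKM.

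Sepsecs and Sephs1 were lower in siSbp2l. Sepsecs stood at 7.51 and 7.66 FPKM against 7.38 to 11.0 FPKM in the control libraries, where non-treated replicate 1 was below both siSbp2l libraries. Its fitted difference was -0.31 ± 0.09 (adjusted p = 0.0131). It passed against NC siRNA #1 (-0.41) and NC siRNA #2 (-0.45), but the difference was -0.26 against mock (adjusted p = 0.0825) and -0.12 against non-treated (adjusted p = 0.402). It no longer passed over the 4 controls without either siSbp2l library (adjusted p = 0.105 without replicate 1 and 0.0783 without replicate 2). Sephs1 stood at 12.8 and 13.1 FPKM against 13.9 to 17.5 FPKM. Against non-treated it passed (-0.32, adjusted p = 0.0265). It did not pass against mock (-0.21, adjusted p = 0.116), NC siRNA #1 (-0.23, 0.0868) or NC siRNA #2 (-0.14, 0.285). Over the 4 controls Sephs1 differed by -0.23 ± 0.08 (adjusted p = 0.0368). It lost its call when either siSbp2l, either mock, either NC siRNA #1 or either NC siRNA #2 library was left out, with adjusted p between 0.0505 and 0.197.

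The other 4 genes did not pass. Sephs2, at 13.5 and 12.6 FPKM in siSbp2l, differed from the controls by 0.04 with a 95% interval from -0.19 to 0.27. Pstk differed by -0.08 with an interval from -0.40 to 0.24, and Trnau1ap by 0.15 with an interval from -0.09 to 0.40. Scly stood at 12.2 and 13.7 FPKM, inside the control range of 8.29 to 21.6 FPKM, and differed by -0.23 with an interval from -0.62 to 0.16. Changes of 2-fold lie outside these intervals. Without non-treated replicate 2, the Scly difference was -0.34 and passed (adjusted p = 0.00239).

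Together, 5 of the 9 genes passed in siSbp2l against the 4 controls, 2 higher and 3 lower, and 1, Secisbp2l itself, was past 2-fold. Over all genes 35.5% were higher, 17.9% were lower and 7.19% were past 2-fold. The median of the 9 genes was -0.08 and that of all genes tested 0.15. When libraries were rescaled so that this general shift vanished (median-ratio scaling, 0.00 over all genes), Secisbp2 was higher by 0.41 (adjusted p = 0.00131), Eefsec was higher by 0.50 (adjusted p = 0.00126), Sepsecs and Sephs1 were at -0.46 and -0.38, and the difference of Sephs2 turned to -0.11. Under that scaling 22.5% of all genes were higher and 24.6% lower. Against single controls 4, 4, 5 and 4 of the 9 genes passed for non-treated, mock, NC siRNA #1 and NC siRNA #2, where 49.3, 42.6, 47.3 and 41.7% of all genes did. Secisbp2l, Secisbp2 and Eefsec passed in all 4, within the limits given above for Eefsec.

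OL and OPC markers moved in siSbp2l too. The summed OL markers stood at 1137 to 1239 FPKM, below the controls and above Day0, and each of the 5 OL markers was below every control library. The summed OPC markers stood at 264 to 267 FPKM, above every control library. That sum was carried by Pdgfra (150 and 144 FPKM against 32.4 to 72.1 FPKM), while Ptprz1 (112 and 120 FPKM against 54.0 to 118 FPKM) overlapped the controls and Cspg4 (2.24 and 2.26 FPKM against 0.958 to 2.81 FPKM) lay inside their range. The neuronal list, carried by Tubb3, summed to 199 to 201 FPKM in siSbp2l and to 47.8 to 276 FPKM in the controls, and the astrocyte list to 65.3 to 65.4 and 54.5 to 103 FPKM. Of the 5 genes that passed in siSbp2l, Eefsec and Sepsecs had means between the control means and the Day0 mean, whereas Secisbp2, Sephs1 and Secisbp2l had means outside the range of the control and Day0 means. The part of the marker shift in these changes was not tested.

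**Figure D4:**
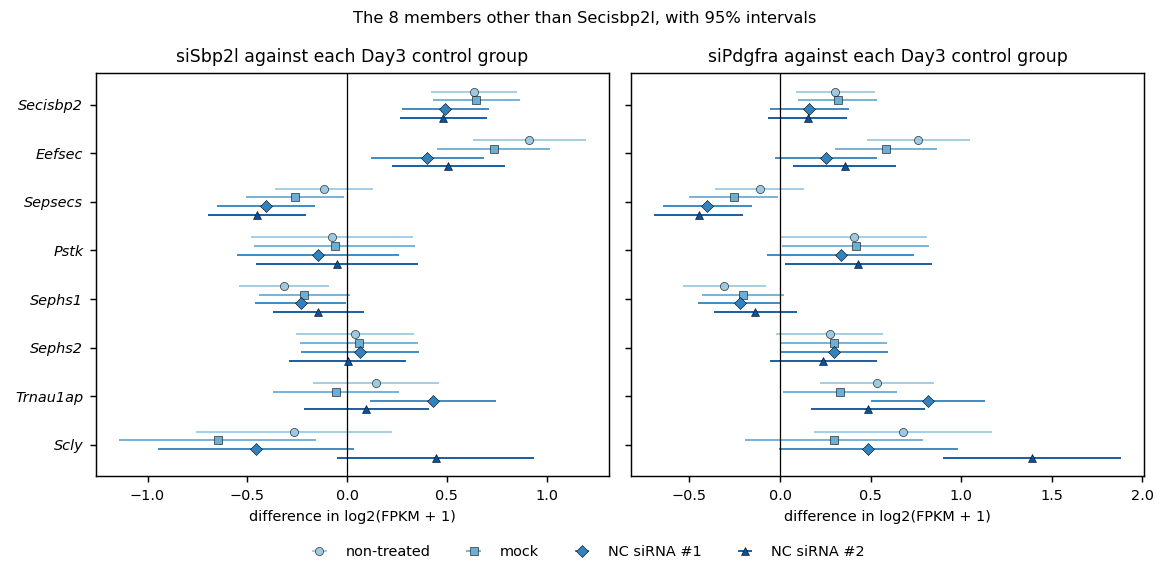
Differences in log2(FPKM + 1) with 95% intervals between siSbp2l (left) or siPdgfra (right) and each of the 4 Day3 control groups (marker shapes), for the 8 genes other than Secisbp2l (rows). In siSbp2l the 4 intervals of Secisbp2 and of Eefsec all lie above 0. Scly depends most on the control group chosen.

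KD of Pdgfra, an siRNA against another gene in the same culture, shifted all 9 genes by less than 2-fold from the mean of the 4 controls, which are the same libraries as those used for siSbp2l. Secisbp2l stood at 145 and 143 FPKM, inside the control range of 135 to 255 FPKM. Its difference from the mean of the controls was -0.31 ± 0.11 (adjusted p = 0.0368), but it was 0.07 against NC siRNA #2 (adjusted p = 0.729). Trnau1ap, at 7.40 and 7.35 FPKM, was above all control libraries (3.10 to 5.96 FPKM), with a difference of 0.54 ± 0.11 (adjusted p = 0.00239). Scly, at 25.7 and 26.1 FPKM, was above all control libraries as well (8.29 to 21.6 FPKM), with a difference of 0.71 ± 0.17 (adjusted p = 0.00626). Scly passed against non-treated (0.68, adjusted p = 0.0273) and NC siRNA #2 (1.39, adjusted p = 0.000667), the latter past 2-fold, but not against mock (0.30, adjusted p = 0.306) or NC siRNA #1 (0.49, adjusted p = 0.0948).

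Eefsec stood at 4.67 and 4.91 FPKM in siPdgfra, above every control library and with a difference of 0.49 ± 0.10 (adjusted p = 0.0023). Sepsecs, at 7.77 and 7.46 FPKM, differed by -0.30 ± 0.09 (adjusted p = 0.0136). The other 4 differences were 0.23 for Secisbp2 (14.9 and 16.7 FPKM, adjusted p = 0.0255), 0.40 for Pstk (7.82 and 6.25 FPKM, adjusted p = 0.0384), -0.22 for Sephs1 (12.2 and 13.8 FPKM, adjusted p = 0.0415) and 0.28 for Sephs2 (15.1 and 16.0 FPKM, adjusted p = 0.0453). Against single controls Pstk and Sephs2 passed for none (adjusted p from 0.0775 to 0.168). Secisbp2 passed for non-treated and mock only, Sephs1 for non-treated only, and Sepsecs for the NC siRNA groups only.

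All 9 genes passed in siPdgfra against the 4 controls, 6 higher and 3 lower, and 0 by 2-fold. The shares of all genes were 32.4% higher, 23% lower and 7.99% past 2-fold, and the medians were 0.28 for the 9 genes and 0.09 for all genes. Several of these calls sat at the threshold. The count fell to 2 without siPdgfra replicate 2, to 4 without mock replicate 1, NC siRNA #1 replicate 2, NC siRNA #2 replicate 1 or siPdgfra replicate 1, to 5 without NC siRNA #1 replicate 1, and to 6 without mock replicate 2 or NC siRNA #2 replicate 2. Trnau1ap and Eefsec passed under every alternative tried for the comparison with the mean of the controls, but against single controls Trnau1ap did not pass against mock (0.33, adjusted p = 0.0829) and Eefsec did not pass against NC siRNA #1 (0.25, adjusted p = 0.127). Against single controls the counts were 6 for non-treated, 2 for mock, 3 for NC siRNA #1 and 4 for NC siRNA #2, beside 50.3, 43.2, 46.5 and 46.4% of all genes. The summed OL markers stood at 1932 to 2056 FPKM, the summed astrocyte markers at 27.5 FPKM and the summed OPC markers, which include the targeted Pdgfra, at 56.8 to 61.3 FPKM in siPdgfra, each below every control library. Among the OL markers, Cnp, Mag and Tppp were below every control library, whereas Mbp (777 and 750 FPKM against 434 to 1188 FPKM) and Mog (39.6 and 33.4 FPKM against 5.23 to 67.2 FPKM) lay inside the control range. The part of these markers in the shifts was not tested.

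The direct comparison of siSbp2l with siPdgfra asked which genes differed between the 2 KDs. Secisbp2l was lower in siSbp2l by -4.90 ± 0.14 (adjusted p = 2.15e-08). Secisbp2 was higher in siSbp2l by 0.33 ± 0.10 (adjusted p = 0.0161), and each siSbp2l library (20.9 and 19.5 FPKM) was above each siPdgfra library (14.9 and 16.7 FPKM). The Secisbp2 difference was 0.24 with median-ratio scaling (adjusted p = 0.053), 0.28 without siSbp2l replicate 1 (0.113) and 0.25 without siPdgfra replicate 1 (0.117), and it passed in none of these. Scly was lower in siSbp2l by -0.95 ± 0.22 (adjusted p = 0.00506), with 12.2 and 13.7 FPKM against 25.7 and 26.1 FPKM.

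Pstk (-0.48, adjusted p = 0.0479) and Trnau1ap (-0.39, adjusted p = 0.0414) were also lower in siSbp2l, and each lost its call with a pseudocount of 0.1, with no filter on low values and with the replicate number as a block (adjusted p = 0.0568 and 0.0559 with the replicate block). Both were also lost when any one of the 4 libraries was left out (adjusted p from 0.0525 to 0.263). Eefsec differed by 0.15, with an interval from -0.13 to 0.43, so its rises in siSbp2l and in siPdgfra were not shown to differ. Sepsecs (0.00, interval from -0.25 to 0.24), Sephs1 (-0.01, interval from -0.24 to 0.22) and Sephs2 (-0.24, interval from -0.53 to 0.06) did not pass either. In all, 1 of the 9 genes was higher and 4 were lower, and 1 was past 2-fold, beside 28.5% higher, 23.4% lower and 13.7% past 2-fold among all genes. The median was -0.24 for the 9 genes and 0.06 for all genes.

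Sephs2 is both a member of the machinery and one of its products. Its own message holds the codon TGA for Sec, at chr7:127273731-127273733 (mm10, minus strand, in its single exon), and Sephs1 holds a different codon at the matching place, chr2:4884497-4884499 (mm10, plus strand, exon 2). Both stretches, from GENCODE transcripts, are shown with that codon in capitals and coding bases on either side.
Sephs2: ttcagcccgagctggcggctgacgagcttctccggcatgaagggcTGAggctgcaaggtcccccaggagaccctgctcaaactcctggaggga
Sephs1: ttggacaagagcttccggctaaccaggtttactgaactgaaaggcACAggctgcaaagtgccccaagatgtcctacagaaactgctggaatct
The 2 stretches share 60 of 93 bases, where the next best placement on the Sephs1 coding sequence shares 39. In siSbp2l, Sephs2, with the TGA codon, differed from the 4 controls by 0.04 and Sephs1, without it, by -0.23, and the difference between the 2 genes was not tested.

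The messages that the machinery reads were followed through the 24 mouse selenoprotein genes, Sephs2 among them. All 24 carry an annotated Sec codon, 23 were listed, and 18 passed the filter of at least 1 FPKM in at least 2 libraries. From Day0 to Day3 non-treated, 9 rose, 5 fell and 4 did not pass, beside 28.4% higher and 38.6% lower among all genes, with a median of 0.17 beside -0.12 for all genes. The largest rises were those of Gpx4, the peroxidase that clears lipid peroxides (81.4 and 77.5 FPKM to 299 and 184 FPKM, 1.55 ± 0.17, adjusted p = 1.05e-05), and Selenok, a protein of the endoplasmic reticulum (1.14 ± 0.16, adjusted p = 6.05e-05). The largest falls were those of Selenoh, a nucleolar selenoprotein (175 and 158 FPKM to 20.04 and 10.4 FPKM, -3.44 ± 0.21, adjusted p = 9.35e-08), and Txnrd1, the cytosolic thioredoxin reductase (214 and 218 FPKM to 64.7 and 58.4 FPKM, -1.80 ± 0.10, adjusted p = 2.11e-08).

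In siSbp2l, 3 of the 18 rose, 3 fell and 12 did not pass, beside 35.5% higher and 17.9% lower among all genes, with a median of -0.03 beside 0.15 for all genes, and 0 were past 2-fold. With median-ratio scaling 2 rose and 6 fell, beside 22.5% and 24.6% of all genes, since Txnrd2 was lost (0.27, adjusted p = 0.0514) and Gpx4 (-0.43), Selenok (-0.39) and Selenoi (-0.29) passed. Selenot was then past 2-fold (-1.07), as it was with upper-quartile scaling (-1.03). Gpx4 differed by -0.26 in the main fit (adjusted p = 0.147) and by -0.39 with upper-quartile scaling (adjusted p = 0.0298). With the non-treated libraries left out, 5 rose and 4 fell, Gpx4 among them (-0.24, adjusted p = 0.00113), beside 45% and 23.5% of all genes. The 3 that rose were the thioredoxin reductases. Txnrd3 stood at 3.81 and 3.58 FPKM against 1.11 to 1.83 FPKM in the controls (0.95 ± 0.09, adjusted p = 1.6e-05), Txnrd1 at 102 and 96.2 FPKM against 54.1 to 70.9 FPKM (0.69 ± 0.08, adjusted p = 7.05e-05), and Txnrd2, the mitochondrial form, at 4.53 and 4.55 FPKM against 1.94 to 4.88 FPKM (0.40 ± 0.10, adjusted p = 0.00611), where the groups overlap. Selenot, a thioredoxin-like protein of the endoplasmic reticulum, fell from 120 to 222 FPKM in the controls to 76.3 and 79.5 FPKM (-0.90 ± 0.15, adjusted p = 0.000808). Selenof fell by 0.32 (adjusted p = 0.00627) and Selenoo fell by 0.28 (adjusted p = 0.0365) on the same scale. In siPdgfra, Txnrd1 (0.71), Txnrd2 (0.45), Selenot (-0.56) and Selenof (-0.37) passed in the same direction as in siSbp2l. Txnrd3 (-0.29) and Selenoo (0.69) passed in the opposite direction there. Between the KDs Txnrd1 (-0.02), Txnrd2 (-0.04), Selenot (-0.34) and Selenof (0.06) did not pass, while Txnrd3 (1.24) and Selenoo (-0.97) did. The Sec codons of Txnrd1, Txnrd2 and Selenot are shown as examples, picked after their changes in siSbp2l were seen. Capitals mark the TGA codon, and only coding bases are given.
Txnrd1: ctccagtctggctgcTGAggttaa
Txnrd2: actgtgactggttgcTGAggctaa
Selenot: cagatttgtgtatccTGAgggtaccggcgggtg
In these GENCODE transcripts the TGA codon is number 612 of 613 in Txnrd1 (chr10:82896037-82896039, mm10, plus strand) and 526 of 527 in Txnrd2 (chr16:18477772-18477774, plus strand), next to the end of the protein, and number 49 of 195 in Selenot (chr3:58585238-58585240, plus strand). It is number 47 of 201 in Gpx1, 129 of 253 in Gpx4 and 63 of 452 in Sephs2, genes that did not pass in siSbp2l in the main fit. Whether the place of the codon goes with the direction of change was not tested.

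In siPdgfra, 8 of the 18 rose, 6 fell and 4 did not pass, beside 32.4% higher and 23% lower among all genes, with a median of 0.24 beside 0.09 for all genes. Gpx1, the abundant cytosolic peroxidase, stood at 167 and 178 FPKM against 50.7 to 88.5 FPKM in the controls (1.29 ± 0.16, adjusted p = 0.000116), and Selenoh rose by 1.22 ± 0.18 (adjusted p = 0.000299). Msrb1, which repairs oxidised methionine, fell to 9.81 and 10.2 FPKM from 20.2 to 38.3 FPKM (-1.44 ± 0.12, adjusted p = 9.01e-06), and Selenok fell by 0.71 (adjusted p = 0.00116). Between the KDs, 4 were higher and 6 lower in siSbp2l, beside 28.5% and 23.4% of all genes and with a median of -0.14 beside 0.06, led by Msrb1 (1.41) and Txnrd3 (1.24) on one side and Gpx1 (-1.33) and Selenoh (-1.09) on the other. Between NC siRNA #1 and NC siRNA #2, Selenop was higher (0.72) and Selenos (-0.98) and Msrb1 (-0.76) lower, beside 10.1% higher and 10.8% lower among all genes and with a median of -0.08 beside -0.06. These are levels of mRNA. The amount of selenoprotein made from them was not measured in these libraries.

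**Figure D5:**
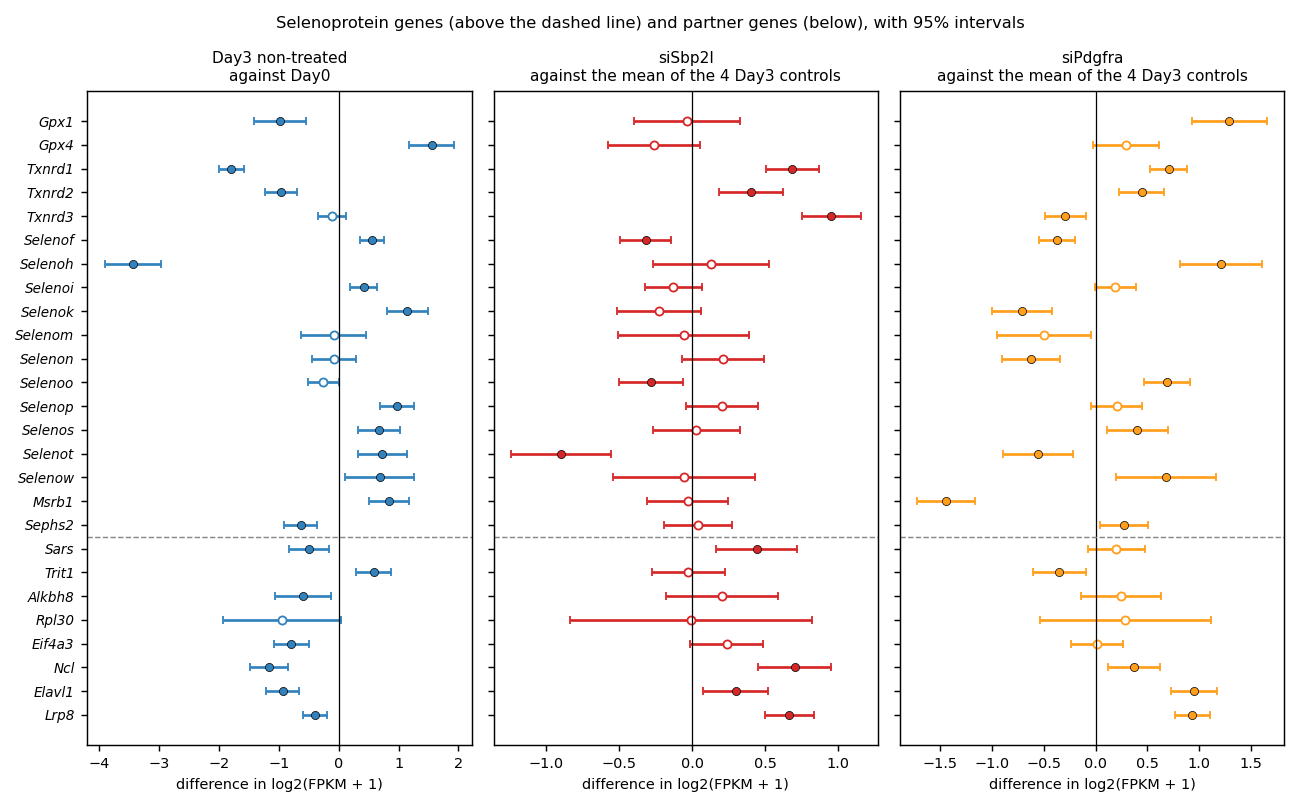
Differences in log2(FPKM + 1) with 95% intervals for the 18 selenoprotein genes tested (above the dashed line) and 8 partner genes (below) in 3 comparisons (panels, each with its own horizontal scale). Filled points passed an adjusted p of 0.05. In siSbp2l the 3 thioredoxin reductases lie above 0 and Selenot is lowest, and in siPdgfra Gpx1 and Selenoh are highest and Msrb1 lowest.

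A second list held 9 partners of the machinery: Sars, which loads serine on the Sec tRNA, Trit1 and Alkbh8, which modify it, Rpl30, Eif4a3, Ncl and Elavl1, which bind selenoprotein messages, and Lrp8 and Lrp2, receptors for selenoprotein P. Of these, 8 passed the filter, and Lrp2 was under it. From Day0 to Day3 non-treated, Trit1 rose (0.58 ± 0.14) and 6 fell, most of all Ncl (-1.16 ± 0.14) and Elavl1 (-0.94 ± 0.12). Among all genes 28.4% rose and 38.6% fell, and the medians were -0.70 for the partners and -0.12 for all genes. In siSbp2l 4 rose and 0 fell (also 0 at an unadjusted p under 0.05), 2 of which (Sars and Elavl1) did not pass with median-ratio scaling. Among all genes 35.5% were higher and 17.9% lower, and the medians were 0.27 for the partners and 0.15 for all genes. The rises were led by Ncl (117 and 100.3 FPKM against 37.8 to 101 FPKM, 0.70 ± 0.11, adjusted p = 0.000543) and Lrp8 (17.7 and 17.7 FPKM against 6.32 to 14.5 FPKM, 0.67 ± 0.08, adjusted p = 5.38e-05). The Ncl libraries overlap those of the controls and the Lrp8 libraries do not. In siPdgfra 3 rose and 1 fell, with Elavl1 at 0.95 and Lrp8 at 0.94 on one side and Trit1 at -0.35 on the other, beside 32.4% higher and 23% lower among all genes and with a median of 0.27 beside 0.09. Between the KDs, Elavl1 (-0.65) and Lrp8 (-0.27) were lower in siSbp2l, beside 23.4% of all genes and with a median of 0.09 beside 0.06. Between the non-targeting siRNAs Elavl1 (0.70) and Lrp8 (0.61) were higher and Ncl (-0.75) lower in NC siRNA #1, beside 10.1% higher and 10.8% lower among all genes and with a median of -0.15 beside -0.06.

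The genes whose pattern was most like that of Secisbp2l were sought by Pearson's r of group means of log2(FPKM + 1) over the 6 groups other than siSbp2l. Among 5711 genes whose means spanned at least 1 log2 unit, the 4 most alike were Ypel2, Strn, Tmcc3 and Myo6, with r from 0.994 to 0.996. The points share libraries, and the span from Day0 to Day3 dominates r. In siSbp2l, which was not used to choose them, Strn stood at 25.6 FPKM against 70.6 to 115 FPKM in the control groups (means of 2 libraries), Tmcc3 at 52.1 against 64.9 to 100.4 FPKM and Myo6 at 36.8 against 77.8 to 124 FPKM, whereas Ypel2, at 13.4 FPKM, lay within the control range of 11.3 to 22.4 FPKM. For Secisbp2 over all 7 groups, among 10921 genes with a span of at least 0.5, the 5 most alike were Aftph, Tle4, Sbno1, 9130221H12Rik and Pcdh19, with r from 0.977 to 0.987. These genes were chosen with siSbp2l and siPdgfra among the groups, so their high levels in siSbp2l come from the choice and are no separate evidence. Aftph, the most alike, stood at 19.2 FPKM in siSbp2l against 12.8 to 14.1 FPKM in the control groups. Tle4, a transcriptional corepressor, stood at 29.3 FPKM at Day0, 25.2 to 38.0 FPKM in the control groups, 63.5 FPKM in siPdgfra and 107 FPKM in siSbp2l.

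Counting precision was lowest for Trnau1ap and Pstk in NC siRNA #2 replicate 2, with 35 and 44 fragments, which give exact Poisson 95% intervals of 3.29 to 6.57 and 4.32 to 7.97 FPKM. For Secisbp2l the fewest fragments were the 538 of siSbp2l replicate 1. The gene model lists 1 transcript for each of the 9 genes, so isoforms were not resolved. The one gene annotated across a member was Mir3110, on the strand opposite to Secisbp2l and listed at 0 in all 14 libraries. Its listed span, chr2:90624624-168258679 (mm10, plus strand), runs far past Secisbp2l on both sides, so a true overlap was not shown.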

How the data were processed

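OPC cultures were profiled by stranded poly(A) mRNA-seq. Per the labels and the study's methods, the authors mapped reads to mm10 and quantified refGene models with OmicSoft ArrayStudio, whose version, aligner and strand settings are not given in the sources used here, and deposited 1 table of FPKM per gene and library. The 14 columns were matched to samples by name, and replicates were not pooled. The authors' own DESeq2 comparisons were not used. Steps in the low FPKM values gave whole fragments (within 0.1) for 89.3 to 92.7% of values, from which depth and counting intervals were estimated. These cover counting error only.

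Genes with at least 1 FPKM in at least 2 libraries were tested on log2(FPKM + 1) with limma 3.58.1 in R 4.3.3 (trend and robust moderation, two-sided). Day0 was compared in a fit of all 14 libraries (11874 genes, 7 residual degrees of freedom) and Day3 groups in a fit of 12 libraries (11650 genes, 6 residual degrees of freedom). Each Day3 control group had equal weight in the control mean. P-values were adjusted by the method of Benjamini and Hochberg over all genes tested. The fit was tested on simulated data. Genes of the 2 pathway lists were named where they passed with the largest changes in each direction, 2 or fewer per list and direction, and others named beyond these were chosen after their values were seen. The 9 genes, the lists and the tests were chosen with earlier results of these data known. Alternatives were other pseudocounts (0.1 and 5), filters, scalings, libraries, a replicate block and leaving out each library. Those that leave the non-treated libraries out of the fit, and the alternatives for the 2 lists, were chosen after seeing the data. Sequences came from the study's primer list and from mouse transcripts (GENCODE vM21, GRCm38). One gene named by the rules for marker sums and for genes most like Secisbp2l is not reported here.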

Additional observations from a re-analysis of the deposited data

How the results depend on the processing

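Each of the 14 libraries rests on 1 culture, groups hold 2, and changes well under 2-fold in genes near 5 FPKM were at the limit of what the spread and 35 to 329 fragments (Trnau1ap) allow. Over the 9 genes and 5 main comparisons, 637 of the values under an alternative kept their direction and side of the threshold, 86 lost their call, 5 gained one and 10 turned in sign. Values with 1 library left out entered this tally for Day3 against Day0 and for both KDs against the 4 controls. They did not enter it for siSbp2l against siPdgfra or between the NC siRNAs, where leaving out 1 library could also lose calls. With a 2-fold change also required, the counts of the 9 genes fell from 8 to 2 for Day3 against Day0, from 5 to 1 for siSbp2l against the 4 controls, from 9 to 0 for siPdgfra, from 5 to 1 for siSbp2l against siPdgfra, from 2 to 0 between the NC siRNAs, and to 1 for siSbp2l against each single control. Fitting the compared groups alone left 5 for Day3 against Day0 and 5 for siPdgfra, where fewer libraries estimate the spread, and using only the NC siRNA groups as controls left 5 for siPdgfra. A pseudocount of 0.1, no filter, and the replicate block each left 3 for siSbp2l against siPdgfra. Replicate numbers showed no pairing common to the groups (correlations of deviations from -0.38 to 0.47 over 21 pairs of groups, 4 of them over 0.1 and 7 under -0.1). Batches shared under other numbers were not tested. With the replicate block the other counts were 8, 5, 8 and 2, and 4, 4, 5 and 4 against single controls.

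Leaving out 1 library at a time gave counts from 6 to 7 for Day3 against Day0, from 3 to 6 for siSbp2l and from 2 to 9 for siPdgfra against the 4 controls, from 2 to 3 for siSbp2l against siPdgfra and from 1 to 2 between the NC siRNAs. Against single controls siSbp2l gave 3 to 6 (non-treated), 3 (mock), 2 to 3 (NC siRNA #1) and 2 to 4 (NC siRNA #2). A group left with 1 library is then assumed to vary like the others. Differences near 0 turned in sign: Secisbp2 between Day3 and Day0 was -2.3e-07 with mock cells and -0.049 to 0.076 without 1 library; Sephs2 in siSbp2l was -0.11 with median-ratio and -0.080 with upper-quartile scaling and -0.0096 to 0.092 without 1 library. Between the NC siRNAs, Secisbp2 was 0.050 with median-ratio and 0.027 with upper-quartile scaling, and Sepsecs was 0.011 with median-ratio scaling. The causes were not tested.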
